A study of Mus musculus with 35 samples.

Results

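Of the 76018 peaks measured, 465 were open mainly at embryonic day 8.5 (E8.5) among endothelial cells (EC) and hemogenic endothelium (HE). These regions of open chromatin were lower in EC and HE at E9.5 and E10.5 because the rule that chose them required it. They were chosen from CPM (read counts in a peak, scaled to the same total in every library), averaged over the libraries of a group. An autosomal peak entered when its mean was at least 10 CPM in both E8.5 EC and E8.5 HE, and when the lower of these means was at least 2 times the mean in each of E9.5 EC, E9.5 HE, E10.5 EC and E10.5 HE. Of 73975 autosomal peaks, 18742 reached 10 CPM in both E8.5 groups, and the 465 regions were 2.48% of those. The word "only" would be too strong for them, since most kept a low level of counts afterwards and some had a high level in blood precursors of E10.5.

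All groups shared 1 genotype, a mouse transgene labelled 23GFP, and every library was made from 1500 pooled sorted cells with 13 PCR cycles. EC and HE had 4 libraries each on all 3 days (E8.5, then E9.5, then E10.5). The labels also give E9.5 pro-HSC/HPC with 3 libraries and E10.5 pre-HSC I and pre-HSC II with 4 each, where HSC stands for hematopoietic stem cell and HPC for hematopoietic progenitor cell. The tissue is labelled PAS+VU for the E8.5 and E9.5 groups and AGM+VU for the E10.5 groups, so tissue and day cannot be told apart between E9.5 and E10.5. That tissue label reads E8.5 on the E9.5 samples too, whose day comes from their titles. Sorting markers are not given in the sources used here, and the cell types could not be checked against marker genes because the peaks carry no gene names.

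In the endothelial-to-hematopoietic transition, a subset of endothelial cells lining the early embryonic arteries becomes hemogenic endothelium, which rounds up and releases blood progenitors and the precursors of stem cells. Pro-HSC, pre-HSC I and pre-HSC II are names for successive stages of that maturation. ATAC-seq uses a transposase that inserts adapters into DNA not covered by nucleosomes, so the count in a region follows the accessibility of promoters and enhancers. Enhancers are often accessible at particular stages, whereas many promoters are accessible in most cell types. In pooled cells, a region open in fewer cells and a region less open in every cell cannot be told apart. Regions are named by their position on mouse build mm9 as deposited.

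The total count in peaks ran from 456770 to 7415315 per library. In both E8.5 groups, libraries 1 and 2 were shallower than libraries 3 and 4, with totals of 1004036 to 1634087 against 2666067 to 5733154. Pre-HSC II was the shallowest group, with totals of 456770 to 1241216, and 3 counts stood for 6.57 CPM in its library 1. Libraries 2 and 3 of pre-HSC I differed by less than the sampling noise and were counted as 1 sample (called library 2), which left 34 samples. The labels do not state whether pools of a group were separate litters. The p-values thus measure the spread between these samples alone, which may be technical.

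The E8.5 signal of the 465 regions was present in all 8 E8.5 libraries. The median region had 20.04, 23.9, 17.3 and 18.3 CPM in E8.5 EC libraries 1 to 4. In E8.5 HE libraries 1 to 4 it had 20.2, 19.96, 13.6 and 13.3 CPM. The 16 EC and HE libraries of E9.5 and E10.5 had medians between 2.168 and 5.77 CPM, all below the E8.5 libraries. By group, the median was 5.13 ± 0.559 CPM in E9.5 EC, 4.93 ± 0.783 CPM for E9.5 HE, 3.54 ± 0.836 in E10.5 EC and 3.69 ± 1.36 for E10.5 HE (SD, n = 4 each). These groups chose the regions, so the values are a description without a test.

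**Figure D1:**
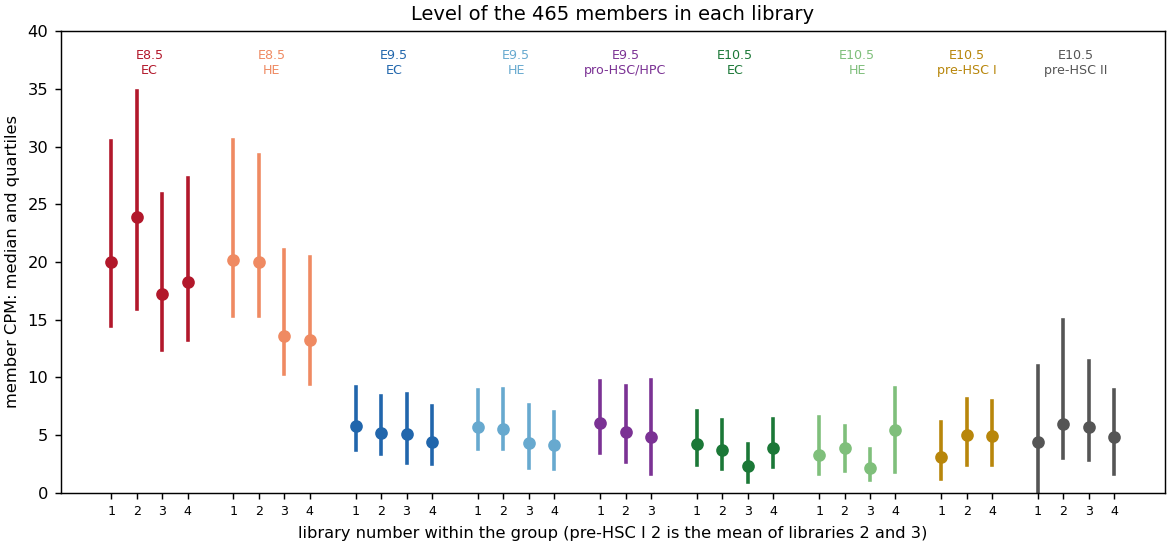
Median (point) and quartiles (line) of the CPM of the 465 regions in each of 34 samples, by group, on a linear axis from 0. The E8.5 medians sit between 13.3 and 23.9 CPM, and the EC and HE medians of later days between 2.168 and 5.77 CPM.

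After E8.5 the CPM of the regions was near that of the median peak rather than at 0. The median over regions of the group mean was 5.16 CPM in E9.5 EC, 4.99 in E9.5 HE, 3.62 in E10.5 EC and 4.01 for E10.5 HE. The median of all 73975 autosomal peaks in the same groups was 3.67, 4.01, 3.95 and 4.36 CPM. The regions were wider, with a median width of 795 bp against 495 bp for all autosomal peaks. CPM was not divided by width, so a similar CPM does not mean a similar accessibility per bp. Over the peaks that reached 10 CPM in both E8.5 groups the median was 24.4 to 26.1 CPM. Relative to the lower E8.5 mean, the median region had 0.331 of the level in E9.5 EC, 0.326 in E9.5 HE, 0.223 in E10.5 EC and 0.232 for E10.5 HE.

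The margin, which is the lower E8.5 mean divided by the highest of the 4 later EC and HE means, had a median of 2.46 and a maximum of 18.9. It lay between 2 and 2.5 in 246 regions, between 2.5 and 3 in 106, between 3 and 4 in 77, between 4 and 5 in 22, and at 5 or more in 14. Just inside the threshold were chr18:68389525-68390664, chr1:24892516-24893039 and chr8:115188159-115189334, with margins of 2.00 each. Just outside were chr11:112853108-112853769, chr10:98238860-98239504 and chr4:11376271-11376887, with margins of 2.00, 2.00 and 1.999. The threshold therefore cuts through a continuous spread, as the plot of the selection shows. All 465 regions passed the filter on low counts used for the tests. That filter took in the libraries of all groups, so high E8.5 levels could bring a region through it.

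**Figure D2:**
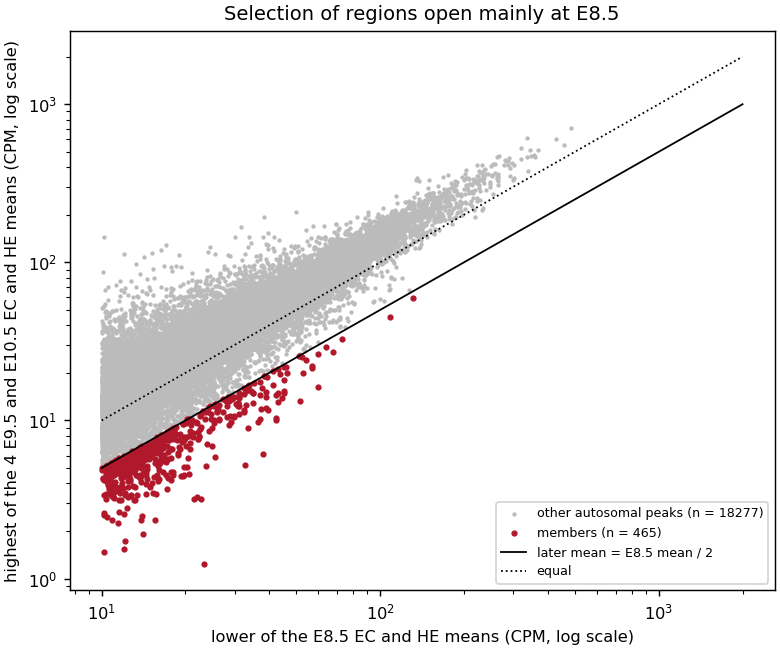
Lower of the 2 E8.5 means against the highest of the 4 later EC and HE means for the 18742 autosomal peaks at 10 CPM or more in both E8.5 groups, both axes in CPM on a log scale. The 465 regions (red) lie on or below the solid line of a margin of 2, and the other 18277 peaks (grey) lie above it.

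At 262 of the 465 regions (56.3%) every one of the 8 E8.5 libraries was above every one of the 16 later EC and HE libraries. This held for 0.784% of all autosomal peaks and 2.2% of those at 10 CPM in both E8.5 groups. In the fit across all peaks, E9.5 EC were called lower than E8.5 EC at 281 regions and higher at 0, with 4.59% and 6.49% of all 67108 peaks tested. For HE the counts were 222 lower and 0 higher, with 1.24% and 0.893% of all peaks. The rule chose the regions for this same difference and so fixed its direction, and nothing is read from the separation of libraries or from either fit.

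The same rule found few peaks at the other days. Turned to E9.5, with both E9.5 means at 10 CPM or more and 2 times the E8.5 and E10.5 means, it took 0 of 16807 autosomal peaks. Turned to E10.5, it took 12 of 16591. In the opposite direction, 27 of 14833 peaks at 10 CPM or more in all 4 later groups were at least 2 times both E8.5 means. No test was made of the difference between these counts.

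The 465 regions were higher in the shallow than in the deep E8.5 libraries. The mean of libraries 1 and 2 over that of libraries 3 and 4 had a median ratio of 1.20 in EC and 1.51 in HE over the regions, against 0.969 and 0.976 over all peaks at 10 CPM in both E8.5 groups. Libraries 3 and 4 alone were at least 2 times the highest later mean at 376 regions in EC and 294 in HE. These libraries and the later means are part of the rule, so nothing is read from these counts. With the rule applied to libraries 3 and 4 in place of all E8.5 libraries, 244 regions were found, 211 of them among the 465. With libraries 1 and 2 it found 828, of which 425 were among the 465. The part of depth in this was not tested.

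The E8.5 libraries had a flatter distribution of counts. The tenth of peaks with the most counts held 52.2% ± 2.62 of counts in E8.5 EC and 54.0% ± 1.88 for E8.5 HE, against 60.1% ± 0.949 in E9.5 EC and 59.2% ± 2.15 for E9.5 HE (SD, n = 4 each). In pre-HSC II the share was 53.9% ± 1.56 (SD, n = 4), and its libraries had region medians of 4.38, 5.98, 5.70 and 4.83 CPM. The part of evenness in the level of the regions was not tested.

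**Figure D3:**
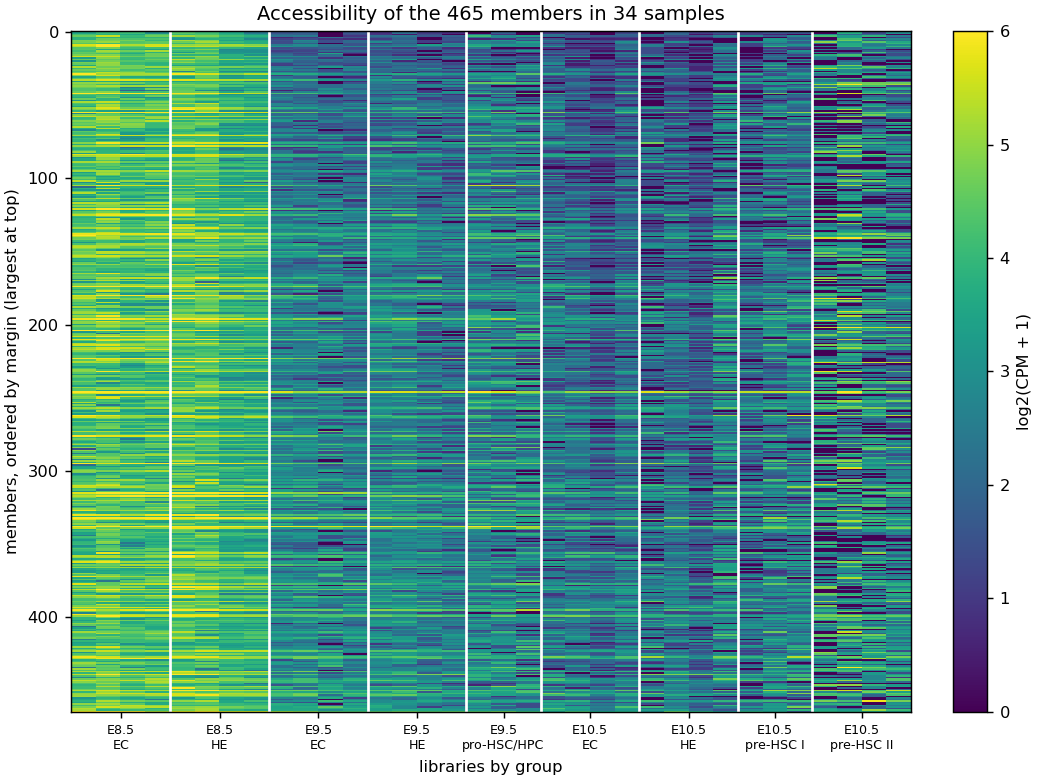
Accessibility of the 465 regions (rows, ordered by margin with the largest at the top) in 34 samples (columns, by group), as log2(CPM + 1), with values above 6 drawn in the top colour. The 8 E8.5 columns are bright from top to bottom, and the pre-HSC II columns hold scattered bright rows among rows at 0.

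The largest margin belonged to chr2:137697945-137698795, region A in the plot of 4 regions, which was nearly closed in every later group. It had 62.5, 50.8, 27.0 and 35.1 CPM in E8.5 EC libraries 1 to 4. In E8.5 HE it had 33.0, 36.6, 13.6 and 9.77 CPM. The 16 later EC and HE libraries had between 0 and 2.36 CPM, so no later library reached the lowest E8.5 library. In the blood groups it had 2.10, 5.29 and 1.62 CPM in pro-HSC/HPC, 1.22, 4.53 and 1.22 CPM in pre-HSC I, and 0, 0, 5.70 and 0 CPM in pre-HSC II.

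Next by margin were chr7:80956144-80956974 (7.84), chr16:38912594-38913227 (7.34) and chr4:6264285-6264947 (7.21). These 3 were less open at E8.5, with group means of 12.1 to 26.8 CPM. The region on chromosome 16 stayed low in all of these, with means of 1.69 ± 2.21 CPM in pro-HSC/HPC (SD, n = 3), 0.567 ± 0.617 in pre-HSC I (SD, n = 3) and 3.10 ± 2.69 in pre-HSC II (SD, n = 4). The region on chromosome 4 had 16.0, 6.18 and 9.74 CPM in pro-HSC/HPC and 17.5, 8.97, 14.3 and 4.83 CPM in pre-HSC II, and its highest value among the 16 later EC and HE libraries was 5.45 CPM, in E10.5 HE library 4. The other 6 of the 10 largest margins, 7.01 down to 6.26, were at chr11:96329219-96330010, chr3:138561459-138562124, chr7:109745912-109746642, chr6:137879627-137880321, chr1:71496269-71496799 and chr12:118742532-118743592. Of these, the region on chromosome 12 was the most open at E8.5, with 53.8 ± 17.9 CPM in EC and 32.8 ± 3.08 in HE (SD, n = 4 each).

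By the lower of the E8.5 EC and HE means, the most open region at E8.5 was chr1:196926496-196927655 (region B), which was less open at each later day. It had 138, 125, 124 and 137 CPM in E8.5 EC and 141, 176, 116 and 101 CPM in E8.5 HE. At E9.5 it had 74.1, 58.6, 51.3 and 54.7 CPM in EC and 71.5, 74.7, 46.7 and 43.8 CPM in HE. At E10.5 it had 21.7, 19.0, 23.3 and 27.6 CPM in EC and 6.58, 32.1, 23.3 and 24.5 CPM in HE. The libraries of the 3 days did not overlap in either cell type. In the blood groups it had 82.1, 70.6 and 43.0 CPM in E9.5 pro-HSC/HPC, the highest of them. It had 9.80, 20.5 and 13.4 CPM in E10.5 pre-HSC I and 21.9, 14.9, 8.56 and 16.1 CPM in E10.5 pre-HSC II. Between the E9.5 and E10.5 blood groups, day, tissue and population differ together and cannot be told apart.

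The other regions with the highest E8.5 levels, ranked by the same lower mean, were chr12:90222017-90224015, chr8:105119604-105121269, chr19:46802099-46803435 and chr3:104030127-104031921. The region on chromosome 12 had 135 ± 20.1 CPM in E8.5 EC and 109 ± 13.0 for E8.5 HE, its EC mean above that of region B by less than the spread of its libraries, and kept 28.0 to 44.9 CPM in the later EC and HE groups (means, n = 4 each). The region on chromosome 8 was more open at E9.5 in EC, at 32.6 ± 3.36 CPM, than in HE, at 14.6 ± 2.95 CPM (SD, n = 4 each), and the libraries of these groups did not overlap. That comparison was picked after its values were seen.

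**Figure D4:**
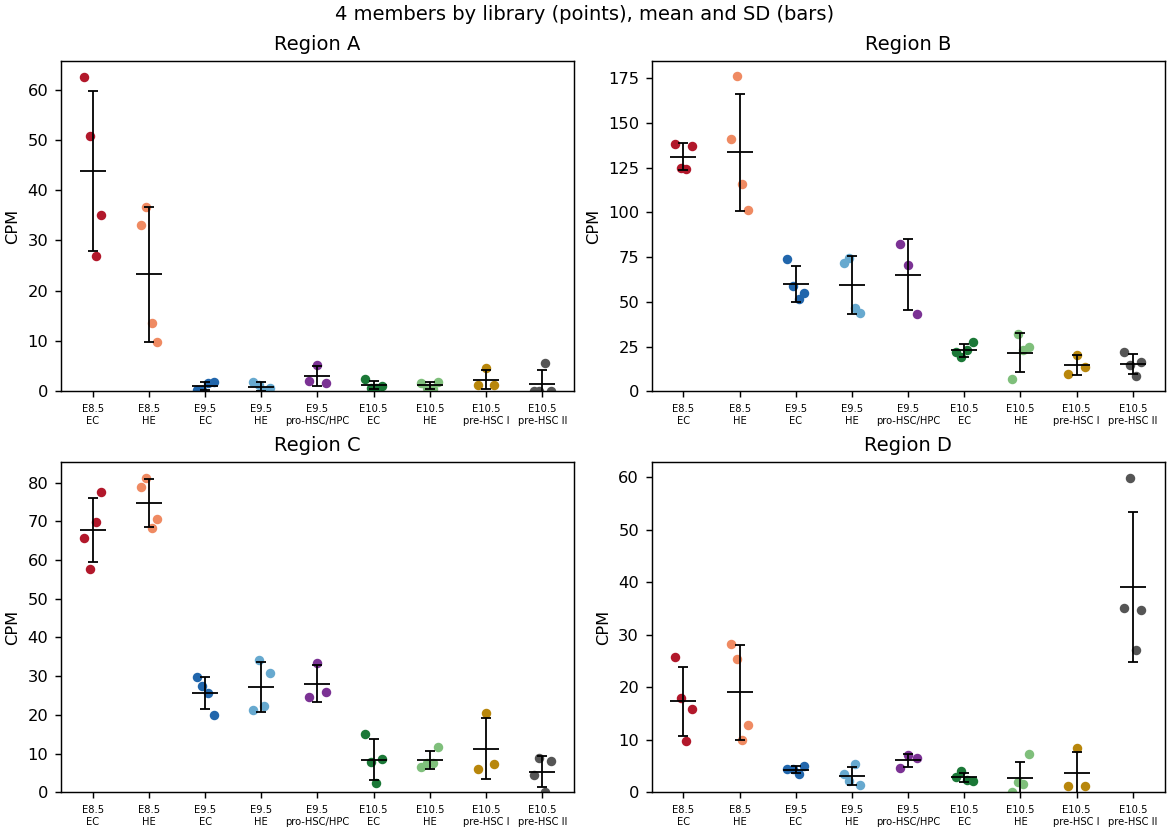
CPM of 4 regions in each sample (points), with group means and SD (bars, which stop at the axis where they would pass below 0), for 9 groups on linear axes from 0. Region A is chr2:137697945-137698795, B is chr1:196926496-196927655, C is chr19:46802099-46803435 and D is chr17:75598832-75599572. B and C are lower at E9.5 than at E8.5 and lower again at E10.5 in EC and HE, and D is highest in pre-HSC II, at 27.1 to 59.8 CPM.

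Within E8.5, EC and HE shared these regions. The EC mean was above the HE mean at 295 of the 465, with a median ratio of EC to HE of 1.09. It was at least 1.5 times the HE mean at 83 regions (17.8%), and the HE mean was at least 1.5 times the EC mean at 16 (3.44%). Among all peaks at 10 CPM in both E8.5 groups these shares were 9.32% and 9.73%. In edgeR's quasi-likelihood test 0 regions were called higher in HE, where 1.31% of all peaks were, and 0 lower, where 0.130% were. At an unadjusted p under 0.05, 2 were higher and 15 lower in HE, with 8.99% and 4.89% of all peaks. The rule required both groups to be high, so nothing is read from these counts.

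Between E9.5 and E10.5 few regions passed the test, although most had the lower mean at E10.5. The E9.5 mean was above the E10.5 mean at 376 regions (80.9%) in EC and at 327 (70.3%) in HE, against 49.8% and 52.6% of all peaks at 10 CPM in both E8.5 groups. The highest of the 4 later means was in E9.5 EC at 196 regions, in E9.5 HE at 166, in E10.5 HE at 79 and in E10.5 EC at 24. In the fit, E10.5 EC were called lower than E9.5 EC at 9 regions (0.249% of all peaks) and higher at 0 (0.0671%). E10.5 HE were called lower than E9.5 HE at 13 (0.495%) and higher at 0 (0.0626%). At an unadjusted p under 0.05, 105 regions were lower in EC and 107 in HE, where 4.77% and 7.02% of all peaks were, and 0 were higher in either cell type, where 4.38% and 4.18% were. These 4 groups are part of the rule as well, so nothing is read from these counts and shares.

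Against HE of the same day, the blood groups differed in how many regions were called. Pro-HSC/HPC was higher than E9.5 HE at 3 regions and lower at 2, with 0.644% and 1.1% of all peaks. Pre-HSC I was higher than E10.5 HE at 0 regions and lower at 1, with 0.0656% and 0.0134% of all peaks, and at an unadjusted p under 0.05 it was higher at 48 and lower at 17, with 4.26% and 3.9% of all peaks. Pre-HSC II was higher than E10.5 HE at 59 (12.7%) and lower at 12 (2.58%), with 6.13% and 11.8% of all peaks. The rule took only regions that were low in HE on these days, so nothing is read from these counts.

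The levels in the 3 blood groups were not used to choose the regions. Most regions were low in all of them, and more regions kept away from this low level in pre-HSC II than in the others. The level was at most 0.5 of the lower E8.5 mean at 416 regions (89.5%) in pre-HSC I, at 363 (78.1%) in pro-HSC/HPC and at 318 (68.4%) in pre-HSC II. Among all peaks at 10 CPM in both E8.5 groups these shares were 16.8%, 13.1% and 21.4%. At 270 regions (58.1%) all 3 blood groups were at or below 0.5 of the lower E8.5 mean, against 8.57% of those peaks. The lower E8.5 mean in these ratios was itself used by the rule, so the shares are a description without a test.

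A level at or above the lower E8.5 mean was seen at 38 regions (8.17%) in pre-HSC II, 10 (2.15%) in pro-HSC/HPC and 3 (0.645%) in pre-HSC I. Among all peaks at 10 CPM in both E8.5 groups these shares were 48.1%, 57.7% and 57.2%. They too rest on the lower E8.5 mean and are a description without a test. Of the 147 regions above 0.5 of the E8.5 level in pre-HSC II, 62 were also above it in pro-HSC/HPC and 34 in pre-HSC I. Pre-HSC II had the highest mean of the 7 groups after E8.5 at 168 regions (36.1%), compared with 31.0% of all autosomal peaks. The rule held the EC and HE groups among these 7 at or below 0.5 of the lower E8.5 mean, which favours a blood group as the highest, so nothing is read from that share. Its libraries held 0.372% ± 0.0740 (SD, n = 4) of their counts in the 465 regions, against 0.256% ± 0.0522 (SD, n = 3) in pre-HSC I and 0.338% ± 0.0212 (SD, n = 3) in pro-HSC/HPC. Its shallow depth and even spread of counts, given above, moved with this, and their part in it was not tested.

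Pre-HSC II against pre-HSC I compares the labelled pre-HSC stages of E10.5. Of the 465 regions, 15 were higher (3.23%) and 7 lower (1.51%) in pre-HSC II by edgeR's quasi-likelihood test, at an adjusted p of 0.05 over all peaks. Over all 67108 peaks 0.852% were higher and 4.29% lower. The median log2 fold change was 0.13 over the regions and -0.17 over all peaks, a distance of 0.30. The filter before this test took in all groups, so regions could enter through their E8.5 levels. A count filter on the 2 groups compared alone kept 173 of the 465, among them 12 of the 15 higher and 3 of the 7 lower. In a fit of these groups alone, 4 of the 173 were called higher and 0 lower. Over all 30222 peaks in that fit, 559 were called higher and 396 lower. With RLE size factors the median of all peaks moved to 0.11 and that of the regions to 0.43, a distance of 0.33. The calls became 18 higher and 1 lower, with 1.35% and 1.84% of all peaks. DESeq2 called 41 higher and 2 lower, with 2.85% and 2.5% of all peaks. The distance was 0.66 in the fit of the 2 groups alone (0.72 with the replicate number as a block), 0.18 without pre-HSC II library 2, 0.46 without its library 4 and 0.45 without pre-HSC I library 2. The count of 22 calls fell to 6 without pre-HSC I library 1, 8 without pre-HSC II library 2, 13 without pre-HSC II library 3 and 10 without pre-HSC I library 4.

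The smallest adjusted p belonged to chr17:75598832-75599572 (region D), a peak of 740 bp that was open at E8.5 and most open in pre-HSC II. It had 25.7, 17.9, 9.75 and 15.8 CPM in E8.5 EC and 28.2, 25.3, 9.90 and 12.9 CPM in E8.5 HE. The 16 later EC and HE libraries had between 0 and 7.26 CPM, and pro-HSC/HPC had 4.72, 7.06 and 6.49 CPM. Pre-HSC I had 1.22, 8.35 and 1.22 CPM, whereas pre-HSC II had from 27.1 to 59.8 CPM, with a median of 34.8 CPM. All 4 pre-HSC II libraries were above every library of the other 6 groups after E8.5, and 3 of the 4 were above every E8.5 library. The log2 fold change against pre-HSC I was 3.05 ± 0.58 (SE) with an adjusted p of 0.000607 in the edgeR fit, and it stayed past the threshold under all 14 alternatives run for it. Left out in turn, single libraries moved it from 2.61 to 4.68, the latter without pre-HSC I library 2.

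A smaller peak with the same outline was chr9:115686047-115686572. It had 13.1, 16.4, 8.56 and 8.86 CPM in pre-HSC II and 1.22, 1.91 and 0 CPM in pre-HSC I, with E8.5 means of 12.2 ± 5.85 CPM in EC and 10.6 ± 3.92 in HE (SD, n = 4 each). All pre-HSC II libraries were above the pre-HSC I libraries, within the range of the E8.5 libraries. The log2 fold change was 3.05 ± 0.76 (SE) at an adjusted edgeR p of 0.00963. It was 2.48 with an adjusted p of 0.0663 without pre-HSC I library 4.

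The next 3 by adjusted p were chr14:104203224-104204179, chr3:42253306-42254173 and chr17:69614288-69616082. The region on chromosome 14 had 1.36 ± 1.44 CPM in pre-HSC I (SD, n = 3), against 12.6 ± 7.26 in pre-HSC II (SD, n = 4), which is 2.72 ± 0.68 in log2 (SE, edgeR adjusted p = 0.00991). Its adjusted p was 0.0908 when pre-HSC I library 1 was left out and 0.0578 for pre-HSC II library 3. The region on chromosome 3 went from 10.8 ± 4.06 CPM (SD, n = 3) to 40.4 ± 7.87 (SD, n = 4), a level above its E8.5 means of 34.5 CPM in EC and 16.6 in HE (adjusted p = 0.0174 by edgeR). Without pre-HSC I library 1 its adjusted p was 0.138. The second region on chromosome 17 had the highest pre-HSC II level of all 465, 49.9 ± 14.4 CPM (SD, n = 4), against 13.7 ± 5.95 in pre-HSC I (SD, n = 3) and 21.0 ± 7.08 in pro-HSC/HPC (SD, n = 3). Its adjusted p was 0.0221, and 0.0798, 0.141 and 0.0836 without pre-HSC I library 1, pre-HSC I library 4 and pre-HSC II library 2.

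Of the 7 regions lower in pre-HSC II, chr3:11038970-11039801 had the smallest adjusted p and was at 0 counts in all 4 pre-HSC II libraries. Pre-HSC I had 0, 5.25 and 4.88 CPM, so 1 of its libraries was at 0 as well. Counts in these 2 groups alone would not have passed the filter, so the region was tested only through its level elsewhere. A count of 0 in the 3068163 counts of the group allows up to 0.978 CPM (3 counts over the group). The observed pre-HSC I mean of 3.37 CPM was 3.45-fold above this bound, and the E8.5 HE mean of 10.8 CPM was 11.1-fold above it. The bound covers counting error in pre-HSC II only, so neither fold is a lower limit on the difference. The adjusted p was 0.0708 when pre-HSC I library 2 was left out and 0.0549 for pre-HSC II library 2.

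The second, chr1:102701665-102702591, kept more of its level in HE than in EC after E8.5. It had 17.4, 21.3, 26.6 and 28.5 CPM in E9.5 HE against 16.8, 19.0, 6.83 and 8.81 in E9.5 EC, and 27.2, 27.6, 26.8 and 20.9 CPM in E10.5 HE against 12.3, 4.47, 7.94 and 13.5 in E10.5 EC. The HE and EC libraries overlapped at E9.5 and not at E10.5. These groups are part of the rule and HE was not tested against EC on these days, so this is a description. Pre-HSC I had 15.9, 12.9 and 17.1 CPM and pre-HSC II had 0, 0, 8.56 and 8.06 CPM. The log2 fold change between them was -1.86 ± 0.52 (SE) at an adjusted edgeR p of 0.0258, and -1.60 with an adjusted p of 0.0746 with RLE size factors. The adjusted p was 0.0788, 0.0552, 0.063 and 0.11 without pre-HSC I libraries 1 and 4 and pre-HSC II libraries 1 and 2. The next 3, chr18:58613335-58614498, chr3:145347538-145348580 and chr14:47280971-47282313, had pre-HSC I means of 9.16, 8.48 and 14.8 CPM (n = 3) and pre-HSC II means of 2.62, 1.86 and 3.28 CPM (n = 4). The first and second of these would not have passed the filter on the groups compared alone either. Their adjusted p of 0.0371, 0.0377 and 0.0410 by edgeR became 0.0984, 0.0974 and 0.0982 with RLE size factors, and 0.0719, 0.0712 and 0.0617 with DESeq2. Without single libraries the largest adjusted p was 0.104 for the first (pre-HSC I library 2), 0.104 for the second (pre-HSC I library 1) and 0.274 for the third (pre-HSC I library 4).

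Pro-HSC/HPC against pre-HSC I compares the E9.5 blood group with the first E10.5 stage. Of the 465 regions, 1 was higher (0.215%) in pro-HSC/HPC and 0 lower by edgeR, and 0.0104% and 0.00894% of all peaks were. At an unadjusted p under 0.05, 55 regions were higher and 9 lower, with 4.34% and 3.65% of all peaks. DESeq2 called 7 higher and 0 lower, with 0.221% and 0.106% of all peaks. The count filter on the 2 groups alone kept 213 of the 465, the called region among them. The median log2 fold change was 0.40 over the regions and 0.02 over all peaks, and 0.45 and 0.07 with RLE size factors. The distance of 0.38 between these medians became 0.25 without pre-HSC I library 1. The region called was chr1:196926496-196927655 (region B), 2.14 ± 0.34 higher in log2 (SE, edgeR adjusted p = 0.00202). Its adjusted p was 0.0934 without pro-HSC/HPC library 1, 0.105 and 0.0548 without libraries 1 and 4 of pre-HSC I, and in each of these settings the count of calls was 0. The count was 2 without pro-HSC/HPC library 3 and 3 without pre-HSC I library 2.

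Pro-HSC/HPC against pre-HSC II gave 20 regions higher (4.30%) and 6 lower (1.29%) in pro-HSC/HPC by edgeR, close to the 4.66% and 0.790% of all peaks. The median log2 fold change was 0.19 over the regions and 0.18 over all peaks. With RLE size factors both medians were -0.04 and the calls became 11 higher and 8 lower, with 2.64% and 1.29% of all peaks. With DESeq2 the balance turned, with 16 higher and 19 lower and medians of -0.05, where 3.45% and 2.74% of all peaks were called. In a fit of the 2 groups alone the median was -0.17 over the 202 regions that passed the filter and 0.01 over all peaks, so the direction of the regions as a whole was not stable. Of the calls, 12 of the 20 higher and 5 of the 6 lower passed that filter. The 26 calls became 13 without pro-HSC/HPC library 1 and 17 without pro-HSC/HPC library 2. This comparison shares the pro-HSC/HPC and pre-HSC II libraries with the comparisons above.

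Region B led the regions higher in pro-HSC/HPC, at 2.39 ± 0.34 in log2 over pre-HSC II (SE, edgeR adjusted p = 6.46e-06), and stayed past the threshold under all 14 alternatives run for it. The second was chr19:46802099-46803435 (region C), which was also less open at each later day. It had 57.8 to 77.5 CPM in the E8.5 EC libraries, 68.2 to 81.2 in E8.5 HE, 20.1 to 29.7 in E9.5 EC, 21.2 to 34.2 in E9.5 HE, 2.33 to 15.1 in E10.5 EC and 6.58 to 11.8 for E10.5 HE. Pro-HSC/HPC had 24.7, 33.5 and 26.0 CPM and pre-HSC II had 4.38, 8.97, 0 and 8.06 CPM, with no overlap (2.52 ± 0.46 in log2, SE, edgeR adjusted p = 0.000258).

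The next 3 were chr9:123268748-123269807, chr13:52317476-52319026 and chr6:16819727-16820858, with log2 fold changes of 2.64 ± 0.50, 2.01 ± 0.44 and 2.23 ± 0.49 (SE). They had pro-HSC/HPC means of 22.1, 26.5 and 21.8 CPM (n = 3) and pre-HSC II means of 4.43 to 8.16 CPM (n = 4). Their E9.5 HE means were 15.4, 25.2 and 22.1 CPM (n = 4 each).

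Among the 6 regions lower in pro-HSC/HPC than in pre-HSC II, region D came first, at -2.44 ± 0.54 in log2 (SE, edgeR adjusted p = 0.00321), and stayed past the threshold under all 14 alternatives run for it. The second, chr4:142951134-142952318, was an EC-weighted region at E8.5, with 34.5, 47.8, 44.6 and 26.5 CPM in EC and 12.2, 13.3, 13.1 and 8.37 CPM in HE. It had 3.15, 0 and 0 CPM in pro-HSC/HPC and 13.1, 32.9, 12.8 and 8.06 CPM in pre-HSC II, without overlap (adjusted p = 0.00512 by edgeR, and 0.0526 without pro-HSC/HPC library 2). A pair of neighbours on chromosome 11, chr11:108767757-108768881 and chr11:108771732-108772652, were both among the 6. They had means of 1.05 and 3.14 CPM (n = 3) in pro-HSC/HPC and means of 10.3 and 19.7 CPM (n = 4) with medians of 10.7 and 23.7 CPM in pre-HSC II, with adjusted p of 0.0358 and 0.0416 by edgeR. The first would not have passed the filter on pro-HSC/HPC and pre-HSC II alone. Neither call held without pro-HSC/HPC library 2 (adjusted p of 0.184 and 0.0902), library 3 (0.107 and 0.149), pre-HSC II library 2 (0.155 and 0.106) or pre-HSC II library 3 (0.129 and 0.0937). The second also failed without pro-HSC/HPC library 1 (0.0964) and pre-HSC II library 1 (0.0792). The fifth, chr10:123575441-123576026, had 1.95 ± 0.606 CPM in pro-HSC/HPC (SD, n = 3) and 9.32 ± 4.88 in pre-HSC II (SD, n = 4), with an adjusted p of 0.0386 by edgeR. It was past 0.05 without each of the pro-HSC/HPC libraries 1 to 3 (0.165, 0.0755 and 0.0921) and without pre-HSC II libraries 1, 2 and 4 (0.0663, 0.0594 and 0.176).

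The highest levels in pro-HSC/HPC among the 465, after region B, were 53.3 ± 20.3 CPM at chr12:90222017-90224015 and 42.4 ± 6.80 CPM at chr1:186468516-186469701 (SD, n = 3 each). The second of these was near its E8.5 means of 52.9 CPM in EC and 45.1 in HE, while E9.5 EC and HE had 12.7 ± 5.73 and 14.8 ± 7.74 CPM (SD, n = 4 each). In pre-HSC I the highest were 41.8 ± 1.42 CPM at chr12:90222017-90224015, 30.0 ± 24.5 at chr2:106301157-106302900 and 24.6 ± 12.1 at chr9:94591590-94592958 (SD, n = 3 each). In pre-HSC II, chr7:111518372-111519264 followed the second region on chromosome 17, with 43.4 ± 21.8 CPM (SD, n = 4).

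The regions were narrower than other peaks of their level. Their median width was 795 bp (quartiles 646 and 988), against 1163 bp for all peaks at 10 CPM in both E8.5 groups and 495 bp for all autosomal peaks. Of the peaks at 10 CPM in both E8.5 groups, 11.9% of those from 300 to under 500 bp were among the 465 (26 of 219), and the share was 7.47% (171 of 2289) from 500 to under 750 bp. It was 3.69% from 750 to under 1000 bp, 1.34% from 1000 to under 1500 bp and 0.421% (22 of 5226) at 1500 bp or more. Wider peaks were also more open, and the share among the 465 fell from 4.26% at a lower E8.5 mean of 10 to 15 CPM to 0.212% at 100 CPM or more. Within each of the 6 classes of E8.5 level the 465 still had the smaller median width, for example 689 against 841.5 bp from 10 to 15 CPM and 1065 against 1372 bp from 30 to 50 CPM. CPM values were not divided by width, and no test was made of these shares.

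**Figure D5:**
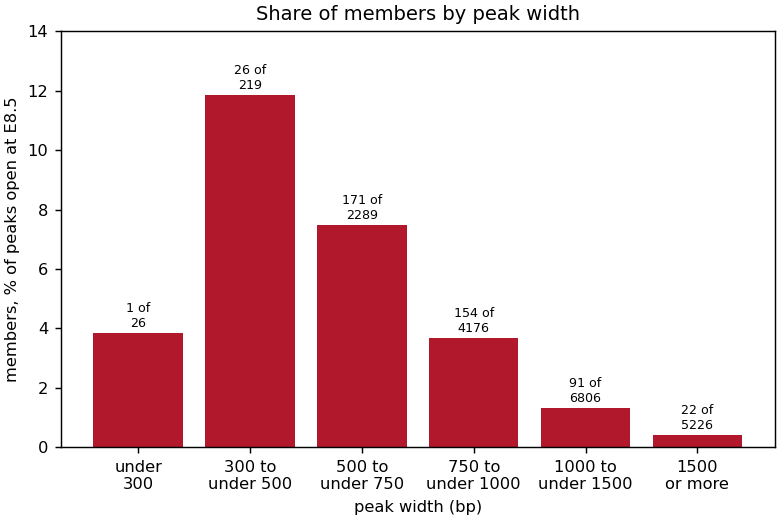
Share of the peaks at 10 CPM or more in both E8.5 groups that are among the 465 regions, in percent, by peak width in bp, with the counts above each bar and the axis from 0. Apart from the class under 300 bp, which holds 1 of 26, the share falls with width from 11.9% to 0.421%.

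On the genome the regions stood in sparser surroundings and partly together. The median region had 8 other peaks within 100 kb and 6493 bp to the nearest peak, against 12 peaks and 3713 bp for the other peaks at 10 CPM in both E8.5 groups. Another of the 465 lay within 100 kb of 63 regions (13.5%), and 5.70% of the other peaks had one. These 63 formed 29 runs, of which the largest held 3 regions each, on chromosomes 2 (133223135 to 133257045), 3 (101209956 to 101328992), 8 (75624297 to 75702809), 9 (114411625 to 114488363) and 10 (111016468 to 111111011). In the run on chromosome 10, chr10:111031592-111033274 had 92.2 ± 20.2 CPM in E8.5 EC and 51.6 ± 9.40 for E8.5 HE (SD, n = 4 each), and its later EC and HE means were 7.23 to 13.3 CPM.

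Peaks beside the regions shared part of their direction. At 417 regions the nearest peak lay within 50 kb and was not itself one of the 465, and the remaining regions were left out. These neighbours had a median log2 ratio of E8.5 to later EC and HE means of 0.51, with 24.5% at 1 or more. For the other peaks at 10 CPM, taken in the same way, the nearest peak had a median of 0.10, with 5.64% at 1 or more. The ratio uses the groups of the rule, and neighbouring peaks are not independent, so this is a description. A peak that opened at E9.5, of which there were 61 on the autosomes, lay within 100 kb of 4 regions (0.860%) and of 1.39% of the other peaks.

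By chromosome, the share of peaks at 10 CPM in both E8.5 groups that were among the 465 ran from 1.136% on chromosome 19 (6 regions) to 4.00% on chromosome 10 (46 regions). Chromosome 3 followed with 3.79% (41 regions), and chromosomes 17 and 11 were low with 1.26% and 1.49%. No test was made of these shares.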

How the data were processed

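Raw counts of reads in 76018 peaks and 35 libraries were deposited by the authors. The submitters' processing notes name MACS2 2.0.1, Bowtie 1.0.0, DiffBind 1.14.6, Trim Galore 0.3.1, SAMtools, deepTools and bedtools 2.17.0 and build mm9, without roles; read filtering, shifting and assignment are not given. Of counts from 10 to 49, 54.1% to 78.2% by library were even, so reads may come in pairs. The folds given over the bound for a count of 0 may then be too high. Whether starts count from 0 or 1 is not given. CPM was computed here as count over column total.

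Filtering with filterByExpr kept 67108 peaks. TMM-scaled counts were tested with edgeR 4.0.16 (glmQLFit, glmQLFTest, two-sided, Benjamini-Hochberg adjusted) in 1 fit of 34 samples with a mean per group and 25 residual degrees of freedom. On simulated data for the 3 comparisons among blood groups, this test recovered 26, 28 and 34 of 100 4-fold changes. It recovered 0, 1 and 1 of 100 2-fold changes. These changes were planted among 76018 simulated peaks, most of them unchanged. In the data, pro-HSC/HPC against pre-HSC I gave 7 higher and 6 lower calls over all peaks. Pro-HSC/HPC against pre-HSC II gave 3124 and 530. The adjusted p depends on how many peaks change, and recovery at the levels of the regions was not measured. The rates therefore do not give the recovery for the regions. A low count of calls was not read as showing that few regions differ. Pre-HSC I libraries 2 and 3 (chi-square 0.461 per degree of freedom, 2.59 to 8.04 in 50 other pairs) entered as their mean. The rule used no values of the blood groups, but the count filter took in all groups. Many regions would not have passed it on the 2 blood groups compared alone. Named regions are the 10 largest margins, the 3 on either side of the threshold, the 3 highest in each blood group, the 5 highest at E8.5, the largest runs, and the 5 smallest adjusted p per direction among blood groups. The regions and lists were chosen with earlier results of these data known. Alternatives were other scalings, DESeq2 1.42.0, no filter, 2-group fits, a replicate block and leaving out libraries. Gene annotation and sequence were not used here. Software was R 4.3.3, Python 3.11.15, numpy 2.4.6, pandas 2.3.3 and matplotlib 3.10.9.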

Additional observations from a re-analysis of the deposited data

Results flagged for a closer look

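Libraries that stood apart from the other 3 of their group by Dixon's criterion were looked for in 91 groups of 4 libraries, over the 13 regions described by library, and in the 7 groups of library medians. It picked 7 values. Chance alone picks about 1 in 20 groups of normally distributed values, a rate that need not hold for low counts. Where the other libraries are all at 0, any count is picked. At chr2:137697945-137698795, pre-HSC II library 3 had 5.70 CPM where the others had 0. At chr7:80956144-80956974, E9.5 HE library 2 had 3.30 CPM where the others had 0.695 to 1.09 CPM. At chr12:90222017-90224015, E8.5 HE library 2 had 128 CPM against 99.2 to 104, and pre-HSC II library 2 had 92.7 CPM against 17.1 to 25.8. At chr9:115686047-115686572, E10.5 HE library 2 had 0.642 CPM where the others had 0. At chr1:102701665-102702591, E8.5 EC library 2 had 77.7 CPM against 40.9 to 46.6, and E10.5 HE library 4 had 20.9 CPM against 26.8 to 27.6. None of the library medians over the 465 regions stood apart.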

How the results depend on the processing

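The number of regions found by the rule, 465, became 302 with TMM-adjusted library sizes (297 shared), 113 at a margin of 3, 142 at 20 CPM, 244 without the shallow E8.5 libraries 1 and 2, and 828 without the deep E8.5 libraries 3 and 4; the last 2 settings were chosen after seeing the data. RLE sizes (426, 392 shared), medians (422, 351 shared), thinning to 456770 counts (435, of which only 289 shared) and leaving out 3 E9.5 libraries high in a chromosome X peak (413, 368 shared, added later) gave numbers within 1.5 times of 465, as did leaving out each library (394 to 547, at least 363 shared). The 22 regions called in the first blood comparison (pre-HSC II over pre-HSC I) became 4 in a fit of the 2 groups, where 173 regions were tested, 43 with DESeq2, and 6 to 27 when leaving out 1 library. For pro-HSC/HPC against pre-HSC I, 1 call became 7 with DESeq2, 5 with pre-HSC I libraries 2 and 3 apart (added later), and 0 to 3 when leaving out 1 library. For pro-HSC/HPC against pre-HSC II, 26 calls became 9 in a fit of the 2 groups, where 202 regions were tested, and 13 to 35 when leaving out 1 library. With the replicate number as a block in the 2-group fits, the calls were 2, 0 and 2. Over all peaks, these blocked fits called 571 higher and 378 lower, 0 and 0, and 258 and 289. Whether the numbers pair the samples cannot be told from their correlations. Same-numbered libraries had 0.0344, 0.0934 and 0.0607 in the first comparison. They had -0.00162 and -0.0212 in the second and -0.00385, 0.0114 and 0.0248 in the third. Libraries with different numbers ran from -0.114 to 0.0557, from -0.0478 to 0.0576 and from -0.0339 to 0.0319 in the same order. No named region changed sign. Medians did: over the regions, pro-HSC/HPC against pre-HSC II went from 0.19 to -0.04 with RLE size factors, -0.06 with total counts, -0.05 with DESeq2 and -0.17 in the 2-group fit, and over all peaks pre-HSC II against pre-HSC I went from -0.17 to 0.11 with RLE size factors. With DESeq2 the 20 higher and 6 lower calls of pro-HSC/HPC against pre-HSC II became 16 and 19. Apart from fewer regions or libraries entering, the causes were not tested. In pre-HSC II library 1, the shallowest, 3 counts stood for 6.57 CPM.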

Other observations

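On chromosome X, which the rule left out, 11 peaks met the same values, and 0 on chromosome Y did.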
